A study of Bos taurus with 28 samples.

Results

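Energy restriction was compared with control feeding in the skeletal muscle of beef steers at the end of a differential feeding period, on day 99. The samples were all those labelled day 99: 12 of the 24 muscle samples of the series, held in 15 of its 28 libraries. All animals were male crossbred Aberdeen Angus x Holstein Friesian. Until day 99 the 6 control steers ate concentrates freely (ad libitum) and were given 7 kg of grass silage a day, and the 6 restricted steers ate grass silage freely and were given 0.5 kg of concentrate a day. Each sample was a biopsy from a different steer, sequenced as poly(A)-selected mRNA, and the labels do not name the muscle. The same 12 steers were sampled again on day 131, 32 days after both groups had moved to a common ration of silage and concentrate.

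Skeletal muscle holds most of the body's protein and is a main site of glucose and fatty acid use. When feed energy is limited, circulating insulin and insulin-like growth factor I usually decline. Muscle then tends to slow protein accretion and lipid synthesis and to draw more on fatty acids as fuel. Restricted cattle that later return to full feeding often grow faster than animals fed freely throughout, which is called compensatory growth. The day 99 comparison asks how muscle RNA differed between the diets before that return. The diets differed in both energy and the proportion of silage to concentrate, which cannot be told apart here.

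The deposited counts carry Ensembl cattle gene identifiers without names, and no identifier could be matched to a symbol here. Levels are therefore described by identifier, by abundance and by steer, and no pathway or cell type is named. The muscle label was not checked against marker genes. A biopsy mixes fibres with fat, vessel and connective tissue cells, so fewer cells of a type and less RNA per cell cannot be told apart.

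Gene counts summed to between 3342314 and 11938629 per control steer and between 4632566 and 24376288 per restricted steer. The highest total belonged to restricted steer 2, whose sample was the sum of 3 technical libraries, and control steer 1 was the sum of 2. Neither depth nor composition separated the diets beyond the spread between steers. The 10 most abundant genes took 13.6% ± 2.40 of counts in control steers and 14.0% ± 1.91 in restricted steers (SD, n = 6 each, exact permutation test, two-sided, p = 0.758). At least 1 count was found for 15879 ± 1227 genes in control and 15639 ± 825 in restricted steers (exact permutation p = 0.699). The exact permutation p was 0.5 for totals and 0.539 for the TMM factor, edgeR's scaling factor for library composition. All 4 were 0.758 after adjustment over the 4 measures. Control steer 3 and restricted steer 5 stood apart with the highest TMM factors on day 99, 1.695 and 1.367. Several results below are given with and without them, but the principal components are given only with them.

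The main axis of variation among the 12 biopsies was not diet. The first principal component of log2 CPM (counts scaled to a common library size, on TMM-scaled totals) held 48.8% of the variance. Control steers ran from −82.7 to 38.6 on it and restricted steers from −73.5 to 66.9 (exact permutation test, p = 0.844). Its low end was held by control steer 3 and restricted steer 5, the same steers that had the highest TMM factors. The second component held 13.4% of the variance and came closer to the diets. All 6 restricted steers had positive scores on it, from 6.20 to 34.3, while 5 of 6 control steers had negative scores and control steer 4 stood at 24.4. Control steer 6 had the lowest score of the 12, −54.3, and the components were not computed again without it. The diet means were 16.2 ± 9.68 and −16.2 ± 26.5 (SD, n = 6 each, exact permutation test, two-sided, p = 0.0173, adjusted p = 0.0519 over 3 components). The third held 7.87%, with an exact permutation p of 0.366.

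**Figure D1:**
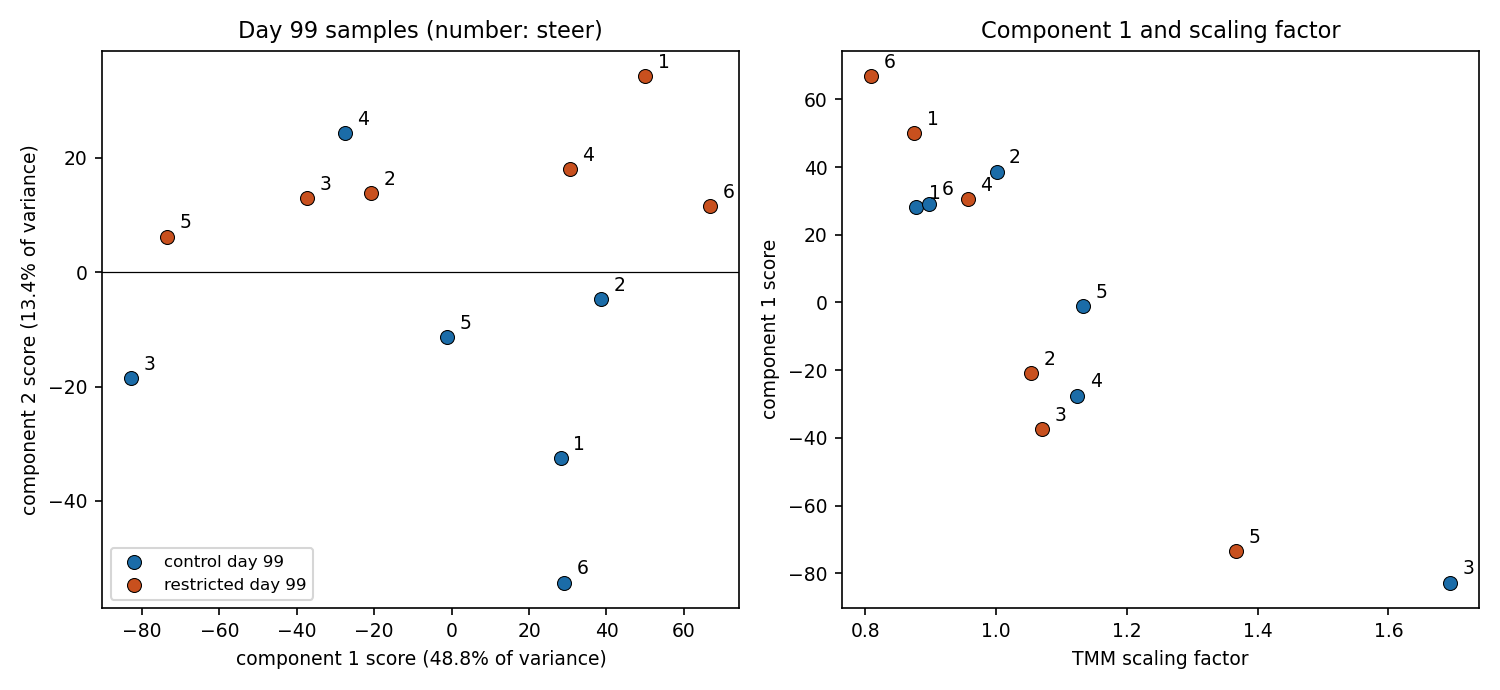
Scores of the 12 day 99 samples on the first and second principal components of log2 CPM, 1 point per steer, coloured by diet and numbered by steer. Control and restricted steers are mixed along the first component (48.8% of variance), and on the second (13.4%) all restricted steers and control steer 4 lie above 0.

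Pairs of steers on the same diet and on different diets correlated to a similar degree. Across genes, the log2 CPM of a pair of steers correlated with a median r of 0.943 between diets (36 pairs), 0.942 within the control diet (15 pairs) and 0.937 within the restricted diet (15 pairs). Without control steer 3 and restricted steer 5 the medians were 0.946, 0.957 and 0.942. These are descriptions, since pairs share steers and genes are not independent. Differences in abundance between genes, which all pairs share, also keep r high, so r says little about diet. Over the 6291 genes of at least 10 CPM, the median standard deviation between steers was 0.497 in controls and 0.519 under restriction, on a log2(CPM + 0.5) scale. Technical libraries of 1 steer differed by a median of 0.0462 (control steer 1) and 0.0440 (restricted steer 2), though these libraries agreed more closely than independent counts would. Leaving out control steer 3 lowered the control value to 0.371, and leaving out restricted steer 5 lowered the restricted value to 0.438.

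Against that spread, no gene passed the test between diets on day 99. Of 24616 genes, 11288 had enough counts to be tested. The quasi-likelihood test of edgeR called 0 of them at an adjusted p under 0.05 (0% of genes tested), and the smallest adjusted p was 0.0551. At an unadjusted p under 0.05 there were 486 genes, 4.31% of those tested, a smaller share than that threshold gives when no gene differs. Among these, 165 were higher in restricted steers (1.46% of genes tested) and 321 were lower (2.84%). The share depended on the model. DESeq2 had 599 of 11280 genes at an unadjusted p under 0.05. With 1 surrogate variable, described below, edgeR had 1518 of 11288, a larger share than the threshold gives when no gene differs. DESeq2 called 20 genes (0.177% of 11280 with an adjusted p) and limma voom called 1, ENSBTAG00000025848. The count of 0 was also sensitive to single steers: edgeR called 5 genes without control steer 4, and 1 gene without control steer 5, restricted steer 5 or restricted steer 6.

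Differences between the diet means were mostly small. The median log2 fold change, restricted against control, was −0.02, and the middle range of genes ran from −0.25 to 0.17. TMM scaling draws that median towards 0, so the median itself does not show that differences were small. With library totals alone it was −0.16. A difference of at least 2-fold was estimated for 51 genes on the higher side and 148 on the lower side, and of at least 4-fold for 4 and 21 genes. The precision behind these values was moderate: the median standard error was 0.34 on the log2 scale. For 6590 genes (58.4%) the 95% interval of the log2 fold change lay wholly within a 2-fold difference either way, and for 11063 (98.0%) it lay within a 4-fold difference. These intervals are per gene and are not adjusted for the number of genes.

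With all 12 samples, low-abundance genes leaned lower and high-abundance genes leaned higher in restricted steers, but this rested on control steer 3. Genes tested were split by mean CPM into 5 classes of like size. In the lowest class the median log2 fold change was −0.19 and 69.2% of genes were lower under restriction. In the highest class the median was 0.11 and 32.5% were lower. The genes at an unadjusted p under 0.05 followed the same division, with 10 higher and 114 lower in the lowest class and 75 higher and 36 lower in the highest. This slope depended on the 2 samples of highest TMM factor. Without control steer 3 it was absent: from the lowest class to the highest the medians were 0.01, 0.09, 0.06, 0.06 and 0.05. Without restricted steer 5 the medians of the lowest and highest classes were −0.31 and 0.18, and without both steers they were −0.11 and 0.11. The excess of lower over higher genes also moved with single libraries and with scaling. Of the genes at an unadjusted p under 0.05, 34.0% were higher in restricted steers, against 53.2% without control steer 3 and restricted steer 5, 49.3% without control steer 4 and 44.1% without restricted steer 5. Scaling by library totals alone gave 15.7% (104 higher and 557 lower) and shifted the median of all genes from −0.02 to −0.16.

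**Figure D2:**
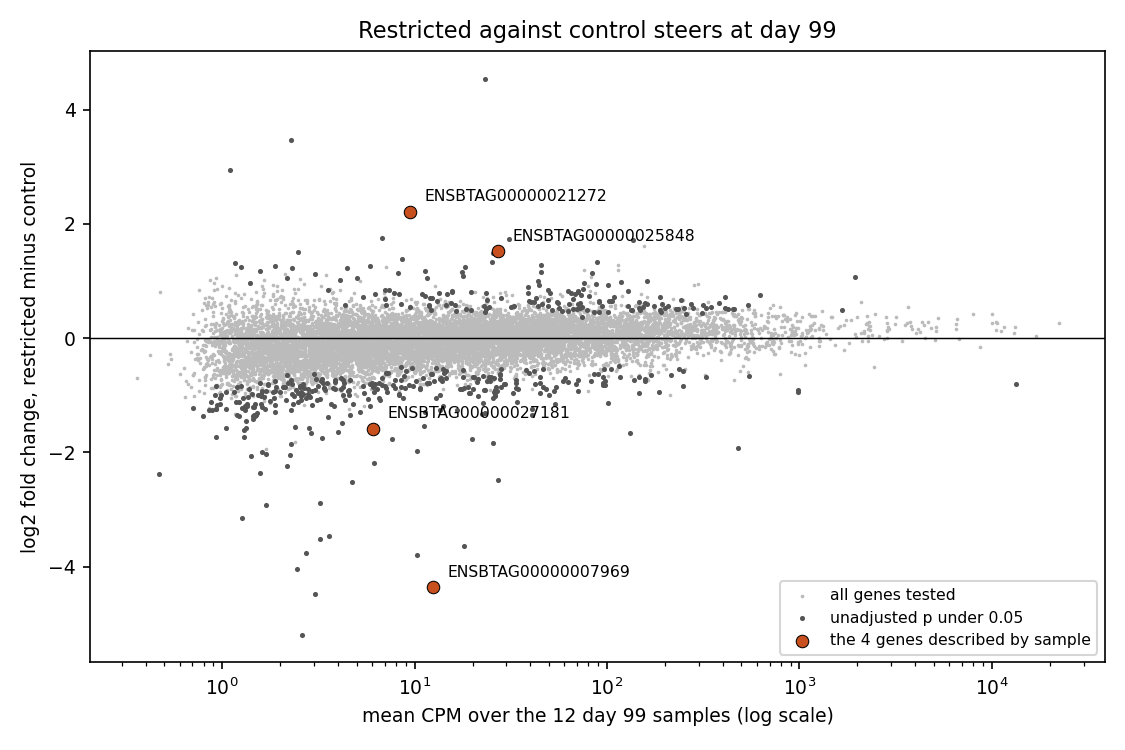
Log2 fold change of each of the 11288 genes tested, restricted against control on day 99, against mean CPM (log axis), with the genes at an unadjusted p under 0.05 as darker points and the 4 genes described by identifier labelled. Points fan out at low CPM, lower genes outnumber higher ones there, and no gene passed an adjusted p of 0.05.

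The gene with the smallest p was ENSBTAG00000025848, which was more abundant in restricted steers. It stood at 35.3, 32.3, 53.6, 30.1, 51.3 and 38.6 CPM in restricted steers 1 to 6. In control steers 1 to 6 it stood at 6.77, 15.6, 16.1, 17.4, 21.4 and 6.01 CPM. Every restricted steer lay above every control steer, and control steers 1 and 6 were the lowest of the 12. The means were 40.2 ± 9.93 and 13.9 ± 6.14 CPM (SD, n = 6 each), and the log2 fold change was 1.52 ± 0.28 (SE; edgeR, unadjusted p = 7.14e-06, adjusted p = 0.0551), or 2.87-fold with a 95% interval of 0.95 to 2.09 on the log2 scale. Groups that did not overlap in this direction were found for 7 genes, 0.0620% of those tested, a share that was not compared with chance. The 4 runs, told apart by the date in the file names, gave differences of 2.22, 1.36, 1.52 and 2.46 on the log2 CPM scale. These are the same 12 values split by run, so the shared sign follows from the lack of overlap. On day 131 the levels overlapped, at 10.5 to 19.5 CPM in control and 9.21 to 16.3 CPM in restricted steers, and the log2 difference was −0.10 ± 0.28 (SE; edgeR, adjusted p = 1.00). The change of the diet difference between days was −1.63 ± 0.39 (SE; edgeR, not paired by steer, unadjusted p = 0.000268, adjusted p = 0.757).

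ENSBTAG00000021272 was also more abundant under restriction on average, but not in every steer. Restricted steers 1 to 4 had 12.1, 25.9, 24.4 and 22.1 CPM, while restricted steers 5 and 6 had 5.32 and 3.46 CPM. Control steers 1 to 6 had 4.26, 2.85, 1.54, 5.45, 2.69 and 3.34 CPM. So 4 of 6 restricted steers lay above every control steer, and the other 2 lay within the control range. The means were 15.5 ± 9.90 and 3.36 ± 1.36 CPM (SD, n = 6 each), on the log2 scale a difference of 2.21 ± 0.41 (SE; edgeR, unadjusted p = 9.77e-06, adjusted p = 0.0551), or 4.64-fold. Leaving out each steer in turn gave edgeR adjusted p values from 0.00635 (without restricted steer 6, the lowest of its group) to 0.299 (without restricted steer 2, the highest). The adjusted p was under 0.05 without restricted steer 5, restricted steer 6 or control steer 4, and not in the other 9 cases. Within runs the difference was 2.54, 0.99, 3.44 and 1.35 on the log2 CPM scale, the smallest in the run that held restricted steer 5. On day 131 the restricted mean was 3.29 ± 1.08 CPM and the control mean 2.85 ± 0.865 CPM (edgeR, log2 fold change 0.23 ± 0.43, SE).

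Technical libraries returned close values for both genes in restricted steer 2, and less close ones for ENSBTAG00000021272 in control steer 1. The 3 libraries of restricted steer 2 gave 31.4, 33.9 and 31.6 CPM for ENSBTAG00000025848 and 26.1, 25.5 and 26.0 CPM for ENSBTAG00000021272. The 2 libraries of control steer 1 gave 6.92 and 6.64 CPM for the first gene. For the second they gave 4.89 and 3.69 CPM, from 24 and 20 counts. Libraries of a steer are repeats of 1 biopsy and say nothing of the spread between steers.

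On the lower side, ENSBTAG00000007969 had the smallest p, and its size was set by 1 control steer. Control steer 6 had 115.9 CPM, while control steers 1 to 5 had 3.87, 4.04, 10.3, 3.66 and 5.39 CPM. Restricted steers 1 to 6 had 1.73, 1.17, 1.33, 0.811, 0.380 and 1.43 CPM. All 6 restricted steers lay below all 6 control steers, as was so for 30 genes (0.266% of those tested, likewise not compared with chance). The log2 fold change was −4.36 ± 0.88 (SE; edgeR, unadjusted p = 3.00e-05, adjusted p = 0.0969), equal to 20.5-fold. Without control steer 6 it was −2.29 (edgeR, adjusted p = 0.960). The run that held control steer 6 gave −6.48 on the log2 CPM scale, and the other 3 runs gave −1.56, −1.91 and −2.31. On day 131 the levels were 2.43 to 16.2 CPM in control and 0.753 to 14.96 CPM in restricted steers, which overlapped (edgeR, log2 fold change −0.48 ± 0.77, SE).

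ENSBTAG00000027181 was less abundant in every restricted steer, without a single steer standing out. It stood at 2.22, 2.69, 2.90, 3.59, 2.66 and 4.17 CPM in restricted steers 1 to 6. In control steers 1 to 6 it stood at 14.9, 6.42, 13.5, 4.48, 7.28 and 8.35 CPM. The groups came close, with 4.17 CPM in restricted steer 6 and 4.48 CPM in control steer 4, but did not overlap. The log2 fold change was −1.58 ± 0.33 (SE; edgeR, unadjusted p = 4.69e-05, adjusted p = 0.0969), or 3.00-fold, and was −1.61 without control steer 6 (edgeR, adjusted p = 0.329). Without control steer 3 and restricted steer 5 it was −1.36 (edgeR, adjusted p = 0.541), and DESeq2 did not call it there (adjusted p = 0.103). By run the difference was −2.38, −1.07, −1.70 and −1.07 on the log2 CPM scale, with a sign that follows from the lack of overlap. On day 131 the means were 4.36 ± 1.13 CPM under earlier restriction and 5.14 ± 2.28 CPM in controls (SD, n = 6 each; edgeR, log2 fold change −0.25 ± 0.33, SE). The restricted day 131 range, 3.00 to 5.62 CPM, overlapped its own day 99 range.

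**Figure D3:**
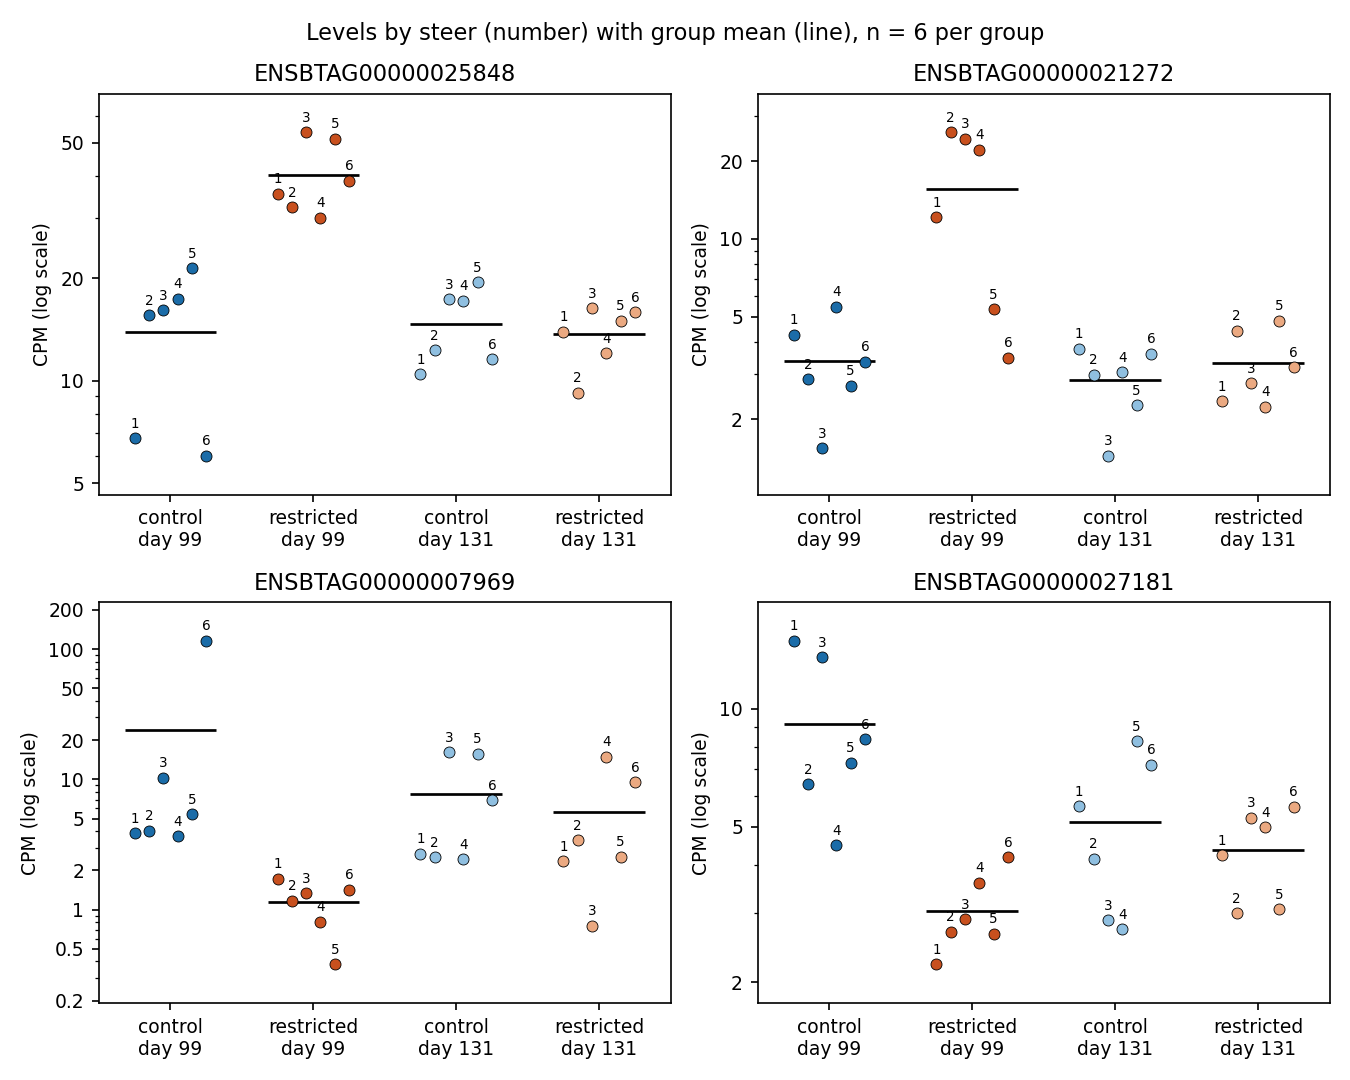
CPM (log axis) of the 4 genes by group, 1 numbered point per steer and a line at the mean of 6 steers. On day 99 the groups do not overlap except for ENSBTAG00000021272 in restricted steers 5 and 6, control steer 6 is far above the rest for ENSBTAG00000007969, and on day 131 the diets overlap for all 4 genes.

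All 4 genes passed when control steer 4 was left out (edgeR, adjusted p = 0.0357 for each). ENSBTAG00000025848 also passed without control steer 5, at an edgeR adjusted p of 0.0403, but not when any other single steer was left out. Its edgeR adjusted p was 0.260 without restricted steer 3 and 0.201 without control steer 6. Without both control steer 3 and restricted steer 5, the edgeR adjusted p was 0.316 for ENSBTAG00000025848. It was 0.0821 for ENSBTAG00000021272 and 0.331 for ENSBTAG00000007969 in that fit. These 4 genes were picked as the smallest p values of the day 99 comparison, so their day 99 levels describe that choice. The day 131 values come from other biopsies of the same steers, and none of the 4 passed the test between diets there. Across all genes, edgeR called 0 between diets on day 131 (smallest adjusted p 0.128, 196 genes or 1.74% at an unadjusted p under 0.05) and 0 for the change of the diet difference between days (smallest adjusted p 0.224). The test of that change did not pair the biopsies of a steer.

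The 20 genes called by DESeq2 divided into 6 higher and 14 lower in restricted steers, and all 4 genes above were among them. The 6 higher genes had log2 fold changes of 1.00 to 3.49 by DESeq2, with a median of 1.35, and a median level of 36.2 CPM. Their mean log2 CPM was 3.20 to 3.88 in control steers and 4.57 to 5.44 in restricted steers, and no steer stood far from its group. That separation of the mean follows from how the genes were chosen, and gene by gene the groups did not overlap for 3 of the 6. The 14 lower genes had log2 fold changes of −5.47 to −1.12, with a median of −3.58, and a median level of 8.27 CPM. Summed over the 14, control steers 1 to 5 had 182 to 272 CPM, control steer 6 had 1001 CPM, and restricted steers had 81.8 to 133 CPM. All 14 were thus chosen in a comparison in which 1 control steer held a sum more than 3 times that of any other. Without control steer 6, DESeq2 called 4 genes, 3 higher and 1 lower, and all 4 were among the 20. ENSBTAG00000025848, ENSBTAG00000021272 and ENSBTAG00000027181 were 3 of these, and ENSBTAG00000007969 was not.

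On day 131, 5 of the 6 genes and 12 of the 14 had the sign of their day 99 difference, as did 58.4% of all genes tested. The sets had a median log2 fold change of 0.21 and −0.26 on that day, and 1 gene in each set was at an unadjusted p under 0.05 by edgeR. The mean log2 CPM of the 14 genes was 1.71 to 3.92 in control steers and 1.20 to 3.20 in restricted steers on that day, so the diets overlapped.

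**Figure D4:**
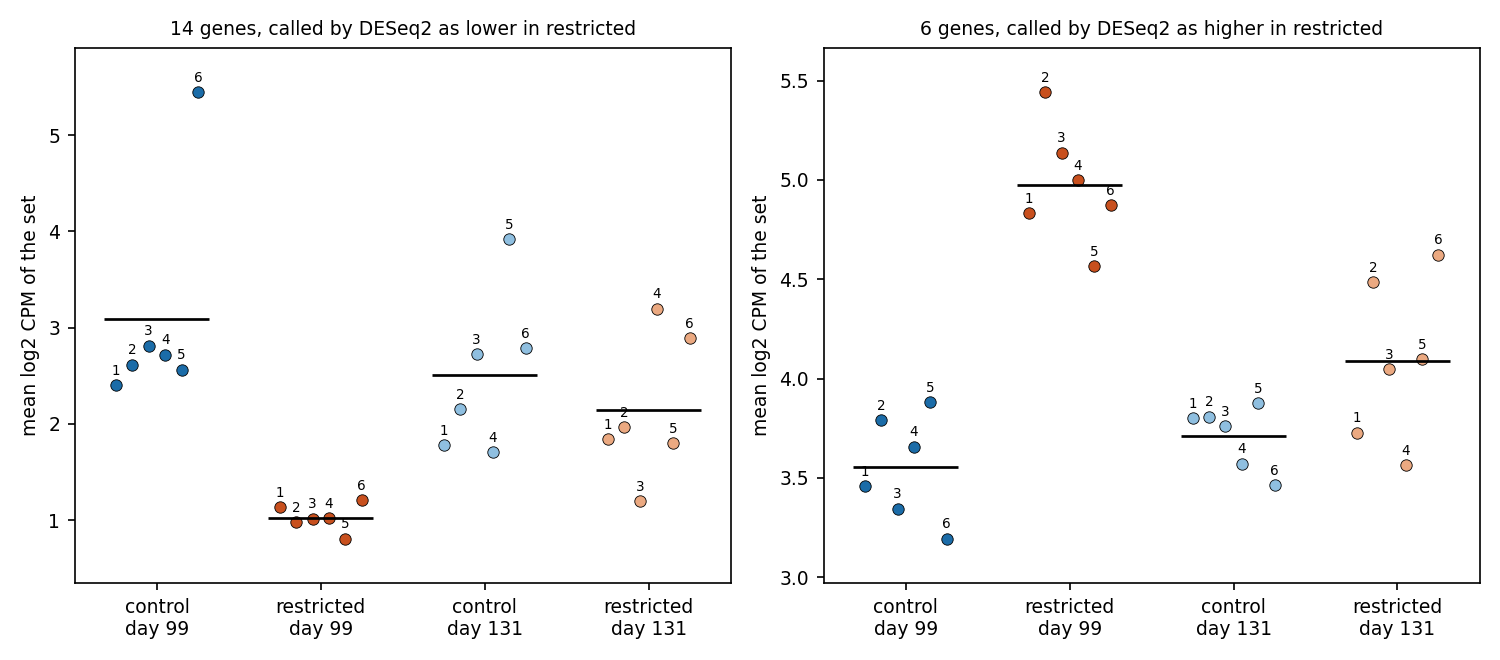
Mean log2 CPM of the 6 genes that DESeq2 called higher and of the 14 that it called lower in restricted steers on day 99, by group, 1 numbered point per steer. The day 99 separation follows from how the genes were chosen, control steer 6 stands at 5.45 for the 14 lower genes against at most 2.81 in the other controls, and the diets overlap on day 131.

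Control steer 6 was often the highest sample among the lower genes. It was the highest of the 12 samples for 132 of the 321 genes that were lower at an unadjusted p under 0.05 (41.1%), and for 15 of the 21 genes at least 4-fold lower. Genes chosen as lower under restriction nearly all peak in a control steer, so the share to set beside this is that among all genes tested whose highest sample was a control steer, where control steer 6 held 18.5%. Its library was also the shallowest, at 3342314 counts. Without it, 12 genes were at least 4-fold lower. On the higher side, restricted steer 6 was the highest sample for 69 of 165 genes (41.8%), which lies near the 35.7% that it held among all genes whose highest sample was a restricted steer. Whether depth, tissue taken by the biopsy or the steer itself accounts for control steer 6 was not tested.

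Adding 1 surrogate variable, a covariate estimated by svaseq from variation that the groups do not carry, gave 32 calls in edgeR (0.283% of genes tested), 10 higher and 22 lower. Their log2 fold changes were 0.57 to 2.22 on the higher side and −2.92 to −0.80 on the lower side. In edgeR without the variable, the 10 higher genes and 20 of the 22 lower genes were at an unadjusted p under 0.05. Over the 24 samples the variable correlated with the log TMM factor at r = 0.914, the measure on which control steer 3 and restricted steer 5 stood apart. Only 7 of these 32 (21.9%) were among the 20 of DESeq2 (35.0% of those). ENSBTAG00000025848, ENSBTAG00000021272 and ENSBTAG00000027181 were called by both. Without control steer 6 the same model called 15 genes, 5 higher and 10 lower, all among the 32. Without control steer 3 and restricted steer 5 it called 6, and DESeq2 called 7.

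**Figure D5:**
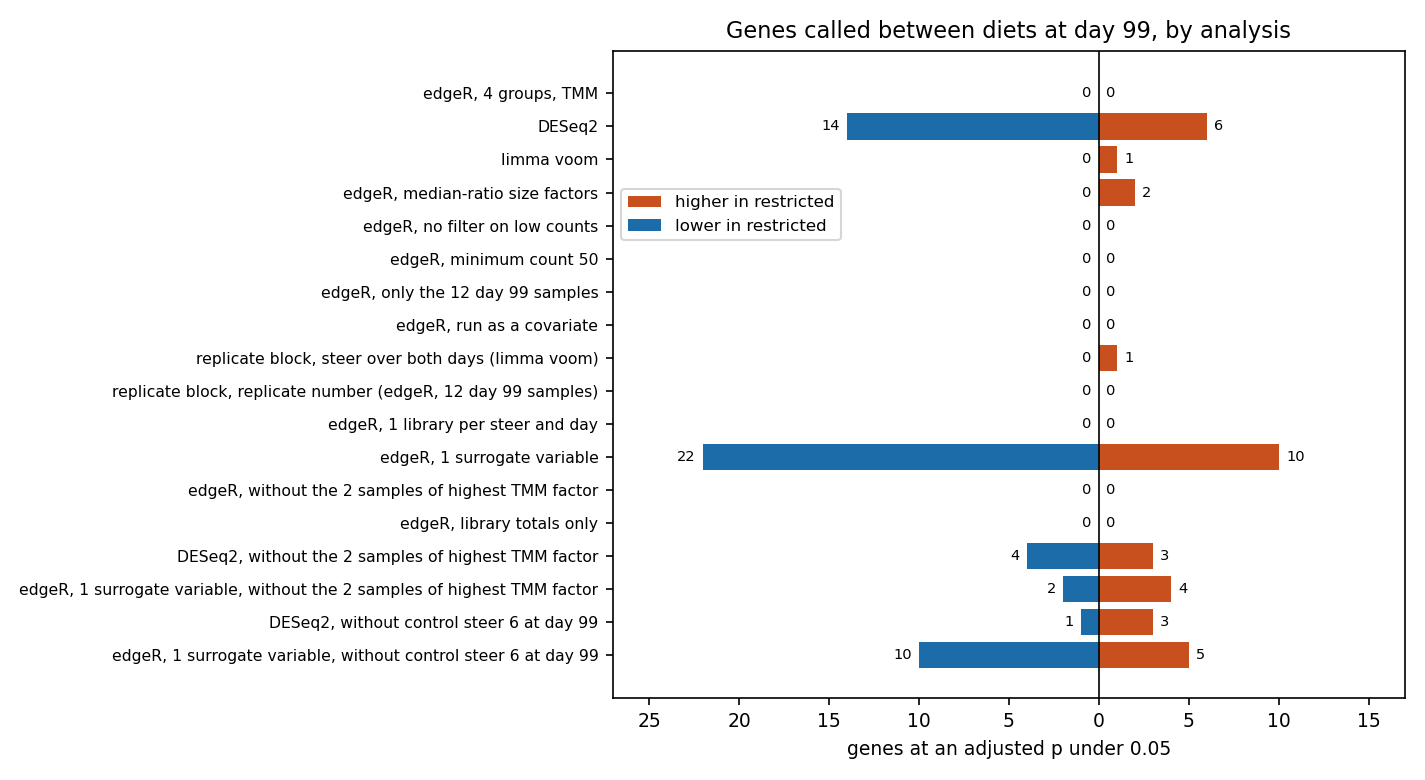
Number of genes called at an adjusted p under 0.05 between diets on day 99 in each analysis, higher in restricted steers to the right and lower to the left. The edgeR test of 4 groups called 0, DESeq2 20 and edgeR with 1 surrogate variable 32, and both of the latter counts were smaller when control steer 6 or the 2 samples of highest TMM factor were left out.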

How the data were processed

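The authors deposited unnormalized counts for each Ensembl gene, with 1 file for each library. Per the submitters' processing notes, their tools included CASAVA 1.4, Bowtie, SAMtools and HTSeq, and the build was UMD3.1. Annotation release and strand setting: not given in the sources used here. Hence overlapping, antisense and near-identical genes can share or lose reads.

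Technical libraries of a steer were summed. At day 99 they differed by less than the sampling noise (chi-square per degree of freedom 0.525 to 0.648 in 4 pairs, genes of at least 10 counts, against 13.2 to 193 between steers of 1 diet) and were taken as 1 sample. Independent counts would give values near 1, and whether libraries of a steer share reads was not tested.

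In R 4.3.3, edgeR 4.0.16 kept 11288 of 24616 genes (filterByExpr, minimum count 10; 3358 genes had 0 counts in every sample), scaled totals by TMM and fitted all 4 groups (24 samples) together with robust dispersions (biological coefficient of variation 0.417). The quasi-likelihood test was two-sided, with Benjamini-Hochberg adjustment over all genes tested at 0.05. Each SE is the absolute log2 fold change over the root of the F statistic. Log2 CPM used a prior count of 2. Library measures were compared by exact permutation over the 12 samples, 6 a side; the principal components were added after seeing the data. Samples of the same day are separate steers. The 24 samples are 12 steers taken on 2 days, and the edgeR fit had no term for the steer. Its test of the change between days thus treats the 2 biopsies of a steer as independent. The run is the date in the file name, and the labels do not say what that date marks. The 4 runs held 1, 2, 2 and 1 control and 1, 2, 1 and 2 restricted samples.

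Alternatives were DESeq2 1.42.0, limma voom 3.58.1, sva 3.50.0, other scalings, filters, sample sets, run as a covariate, replicate blocks and leaving out each sample. The scripts were tested on simulated data. The comparison, gene lists and rules were chosen with earlier results of these data known. The naming rule gives the 2 identifiers in each direction with the smallest unadjusted p. As 0 of 24616 identifiers matched a symbol, gene lists, cell type markers and sequences were not used here.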

Additional observations from a re-analysis of the deposited data

Results flagged for a closer look

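In 26 groups of 6 values examined, 4 held a steer whose gap to its nearest neighbour was large against the range of its group, and chance gives such a gap in about 5% of groups. Control steer 3 had a TMM factor of 1.695, and the next highest control was 1.132. The same steer had −25.2 on the third principal component of the day 99 samples. Control steer 6 stood apart for ENSBTAG00000007969, at a log2 CPM of 6.86. It also stood apart for the 14 genes lower in restricted steers by DESeq2, with a mean log2 CPM of 5.45 against 2.40 to 2.81 in the other 5 controls. That last set includes ENSBTAG00000007969 and was chosen on these samples.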

How the results depend on the processing

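Of 29 alternatives, 16 called 0 genes, and no alternative reversed the direction of any of the 4 genes described. The calls were 20 with DESeq2, 1 with limma voom, 2 with median-ratio size factors and 32 with 1 surrogate variable. Leaving out each of the 12 samples gave 0 to 5 calls; the 5 came without control steer 4 and included all 4 genes, and 1 came without control steer 5, restricted steer 5 or restricted steer 6. Alternatives chosen after seeing the data gave 0 calls with library totals only, 7 (DESeq2) and 6 (surrogate variable) without the 2 samples of highest TMM factor, and 4 and 15 without control steer 6. Genes at an unadjusted p under 0.05, 486 as reported, were 1021 with no filter, where more genes were tested, and 1518 with the surrogate variable (1313 and 1149 without those samples). The cause of the other shifts was not tested.

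Same-numbered steers of the diets are different animals, and their deviations correlated at −0.291 to 0.513, over 0.1 in 3 of 6 pairs, with 1 of 6 best with its own number. With the replicate number as a replicate block edgeR called 0 genes, and with the steer as a replicate block over both days limma voom called 1, ENSBTAG00000025848.

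Leaving out each sample, the restricted minus control difference ran from −25707 to 3923040 for total counts (2521173 as reported, negative without restricted steer 2), from −0.294 to 1.08 percentage points for the 10 most abundant genes (0.386 as reported, −0.106 without restricted steer 1) and from −0.169 to 0.0151 for the TMM factor (−0.0996 as reported, positive without control steer 3). Intervals were widest in the lowest CPM class, where 19.3% of genes had an interval within a 2-fold difference, against 84.0% in the highest class; the parts of depth and of variation between steers in this were not separated.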
